A study of Oryza sativa Japonica Group with 6 samples.

Results

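Calcium sensors and the kinases they control were followed in the roots of rice seedlings after 1 h without nitrogen. The genes were chosen by name: every rice gene whose symbol or synonym, with a leading Os ignored, is CIPK, CBL, CPK or CDPK, CAM or CML followed by a number. The gene annotation held 92 such genes, and 77 of them had a probe set tied to that gene alone among the 17905 genes measured. These were 24 of 30 CIPK genes, 7 of 9 CBL genes, 20 of 24 CPK genes, all 3 CAM genes and 23 of 26 CML genes. The 15 genes without such a probe set (CIPK3, CIPK9, CIPK13, CIPK15, CIPK27, CIPK33, CBL1, CBL7, CPK11, CPK14, CPK25, CPK28, CML2, CML21 and CML22) were not analysed here. The rule itself uses names and no measured value. CIPK29 and CIPK14, however, had been picked by the study from these same arrays and then kept after a separate qRT-PCR experiment. That experiment is not used here, and the array values of these genes are not independent evidence of a direction.

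In plants, a stimulus often raises the Ca2+ concentration of the cytosol, and proteins with EF-hand motifs bind the ion and pass the signal on. Calmodulins (CAM) and calmodulin-like proteins (CML) have no kinase activity and act by binding other proteins. Calcineurin B-like proteins (CBL) are also sensors without an enzyme domain, and they bind and recruit the CBL-interacting protein kinases (CIPK). Calcium-dependent protein kinases (CPK) carry the sensor and the kinase in a single protein. In roots these families are best known for the control of ion uptake: in Arabidopsis, CIPK23 phosphorylates the nitrate transceptor NRT1.1, ammonium transporters of the AMT1 family and the potassium channel AKT1.

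Seedlings of TNG67, a japonica rice cultivar, were raised hydroponically, and RNA from their roots at an age of 10 days was hybridised to the GeneChip Rice Genome Array. The +N group (3 arrays) stayed with nitrogen in the solution and the −N group (3 arrays) had it withdrawn for 1 h. The labels describe a move to new solution for both groups, whereas the study's methods describe one for −N alone, so the handling of the roots and the loss of nitrogen cannot be told apart if only −N was moved. For +N replicate 3 another label gives 0.5 h, and −N replicates 1 and 2 carry the word reanalysis in their titles. Values are the deposited probe set intensities, which are relative units, and a difference is the log2 intensity of −N minus that of +N. Intensities of different probe sets cannot be ranked against each other as amounts of RNA. Each gene, or the summed intensity of a fixed list of genes, is therefore compared only with itself between the groups. Such a sum leans on the brightest probe sets of its list. Fewer cells of a type and less RNA per cell cannot be told apart in whole roots.

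The arrays had medians of 33.3 to 35.2, and the upper quartile was lower on both replicate 1 arrays (131 and 137) than on the other 4 (167 to 180). Of 8 genes typical of root tissue 6 were measured, and their summed intensity was 22045 to 27552 in +N and 23450 to 26214 in −N. The silicon transporter gene Lsi1 of the root had intensities of 13192 to 16384 in +N. SCR1 of the same list lay under the array medians, at 13.7 to 23.2 in +N and 14.3 to 28.2 in −N. Of 4 genes typical of green shoot 3 were measured, and their sum was 12020 to 18316 in +N and 6054 to 10597 in −N, without overlap. CAB2R was bright in these roots, with means of 12902 in +N and 8123 in −N, and rbcS had means of 2044 and 789. Both were lower in −N without overlap. RBCS1 lay near the floor of the array (5.15 to 6.06 in +N). Of 33 genes of jasmonate synthesis and response, which wounding and handling can induce, 30 were measured, with a median log2 difference of 0.41, and their sum was 22552 to 26833 in +N and 26510 to 36066 in −N. Some of them, JAZ9, JAZ11 and JAZ13 among them, had been picked by the study from these same arrays. Of the 30, 11 were higher and 0 lower without overlap, beside 3.98% and 5.32% of all genes. The part of these shifts in the results on calcium sensors and kinases was not tested.

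Two-sided limma tests with Benjamini-Hochberg adjustment over all 17905 genes called 1 member higher in −N, CIPK29, and 1 member lower, CIPK14. Among all genes the share called was 0.0223% higher and 0.0838% lower. Arrays of equal replicate number deviated together, and with that number as a block CIPK18 was called as well, which gave 2 members higher and 1 lower, where 0.212% and 0.408% of all genes were called. No CBL, CPK, CAM or CML gene passed the threshold in either fit. At an unadjusted limma p under 0.05 there were 5 members higher, beside 2.17% of all genes, and 3 lower, beside 3.08%.

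CIPK29 lies on chromosome 7 and encodes a kinase of the CIPK family. Its intensities were 157, 179 and 147 in +N replicates 1 to 3 and 485, 525 and 483 in −N replicates 1 to 3. The lowest −N array was well above the highest +N array, and each group was tight, with means of 161 ± 16.8 in +N and 498 ± 23.7 in −N (SD, n = 3). CIPK29 was 3.10-fold higher in −N, a log2 difference of 1.63 with an SE of 0.19 (limma adjusted p = 0.0413, and 0.0129 with the replicate block). The 3 pairs of equal replicate number gave 1.63, 1.55 and 1.72 on the log2 scale. The call did not hold with 5 arrays, whichever array was left out. The log2 difference of CIPK29 was then 1.57 to 1.71, with limma adjusted p of 0.0523 to 0.371. Among all 17905 genes these fits called 10 higher and 14 lower without −N replicate 1, and 0 without any other array.

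The protein-coding gene next to CIPK29 on the chromosome is another kinase of the family, CIPK2, with no annotated protein-coding gene between them. CIPK2 had 3177, 4020 and 3629 in +N and 3542, 3958 and 3990 in −N, and these ranges overlapped. Its log2 difference was 0.09, with a 95% interval of −0.37 to 0.55 that does not reach the value of CIPK29. The CIPK2 value came from a probe set type that can cross-hybridise, and of its other probe sets a second gave 0.23 and the dimmest −0.91, at a mean intensity of 41.7.

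CIPK14 lies on chromosome 12. It is a near-identical copy of CIPK15 on chromosome 11, a kinase that in rice links oxygen and sugar supply to the induction of α-amylase during germination under water. CIPK14 intensities were 1625, 2023 and 2126 in +N and 527, 528 and 626 in −N. Every −N array was below every +N array, and the means were 1925 ± 265 and 561 ± 56.7 (SD, n = 3). CIPK14 was 3.42-fold higher in +N, a log2 difference of −1.77 with an SE of 0.21 (limma adjusted p = 0.0413, and 0.0129 with the replicate block), and the pairs gave −1.62, −1.94 and −1.76. With any 1 of the 6 arrays left out the value was −1.89 to −1.70 and the limma adjusted p 0.0563 to 0.352. CIPK15 had no probe set of its own, and the CIPK14 probe set is of a type shared by transcripts of one gene. Whether CIPK15 transcripts add to the CIPK14 value was not tested. The study reports that its own qRT-PCR primers did not tell CIPK14 from CIPK15. By unadjusted p, CIPK14 was number 15 and CIPK29 number 17 of the 17905 genes.

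**Figure D1:**
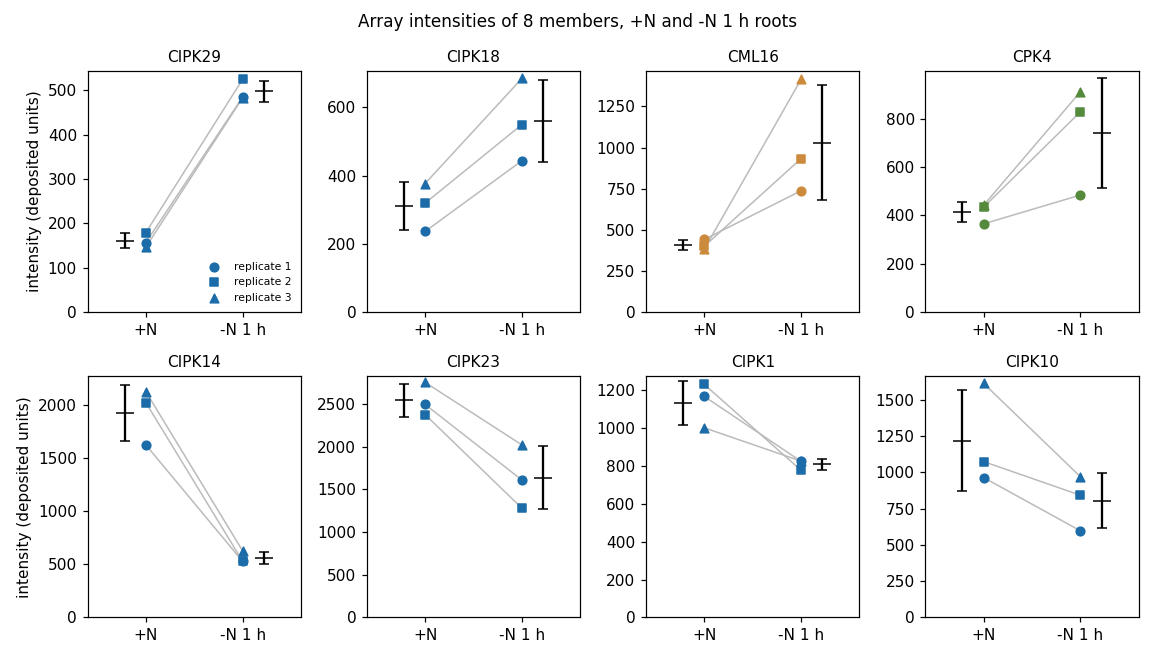
Intensities in deposited units (vertical axes, from 0) of 8 members in +N and −N 1 h roots. Symbols are the 3 replicates, grey lines join equal replicate numbers, and black marks are means with SDs. The groups are fully apart in every panel except CIPK10, where the −N values of 597 to 970 meet the +N values of 964 to 1614.

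CIPK18, which carries CIPK22 as a synonym, differed by a similar factor in each pair although its arrays differed within a group. It had 236, 319 and 376 in +N and 443, 549 and 684 in −N, with the replicates in the same order in both groups. The groups did not overlap, and the pairs gave log2 differences of 0.91, 0.78 and 0.86. The mean log2 difference of 0.85 had an SE of 0.27 without the block (limma adjusted p = 0.602) and 0.09 with it (limma adjusted p = 0.0450). With replicate number 1, 2 or 3 left out of the blocked fit, the limma adjusted p was 0.0689, 0.203 and 0.253.

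Other CIPK genes with separate groups had smaller differences and passed the threshold in neither fit. CIPK32 had 479, 556 and 652 in +N and 654, 797 and 983 in −N, with a log2 difference of 0.52 (limma adjusted p with the block 0.0950). These groups only just cleared each other, by the gap from 652 to 654. CIPK16 had 172, 166 and 197 in +N and 214, 269 and 242 in −N, a log2 difference of 0.44. Its probe set is of the type that can cross-hybridise, and its chromosomal neighbour CIPK27 had no probe set of its own, so whether CIPK27 transcripts add to this value was not tested. CIPK6 also had a positive mean difference, 0.56, but its pairs did not share a sign, at 1.44, 0.78 and −0.55, and its +N values of 44.1, 57.1 and 150 were further apart than its −N values of 120, 98.0 and 103.

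On the lower side, CIPK23 and CIPK1 also had groups that did not overlap. CIPK23 in rice acts with CBL1 to activate the potassium channel AKT1, and its intensities were 2493, 2375 and 2752 in +N and 1608, 1278 and 2019 in −N. Its log2 difference was −0.66 with an SE of 0.23 (limma adjusted p = 0.732, and 0.0981 with the block), and all 3 pairs were negative. A dimmer probe set of CIPK23 gave 0.08, and the average of both gave −0.29, so the size of the difference depended on the probe set. CIPK1 had 1169, 1232 and 1003 in +N and 825, 777 and 826 in −N, a log2 difference of −0.48 with an SE of 0.19 (limma adjusted p = 0.865). Arabidopsis CIPK1 binds CBL1 and CBL9 and takes part in responses to abscisic acid and drought.

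CIPK10 was measured by 4 probe sets, and all 4 gave negative values, from −0.78 to −0.47. Its brightest had 964, 1075 and 1614 in +N and 597, 842 and 970 in −N, which overlap by a small margin, and its log2 difference was −0.59. CIPK24 is the rice counterpart of SOS2, the kinase that activates the sodium exchanger SOS1. It had 392, 584 and 522 in +N and 307, 513 and 417 in −N, with negative values in all 3 pairs (−0.35, −0.19 and −0.32) and overlapping groups. The remaining CIPK genes lay between −0.35 (CIPK25 and CIPK31) and 0.36 (CIPK17), with overlapping groups in each. Over the 24 CIPK genes, 13 differences were positive and 11 negative, the median was 0.06, and 12 were within 1.25-fold, so both ends of the range of all members, −1.77 and 1.63, belonged to this family.

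**Figure D2:**
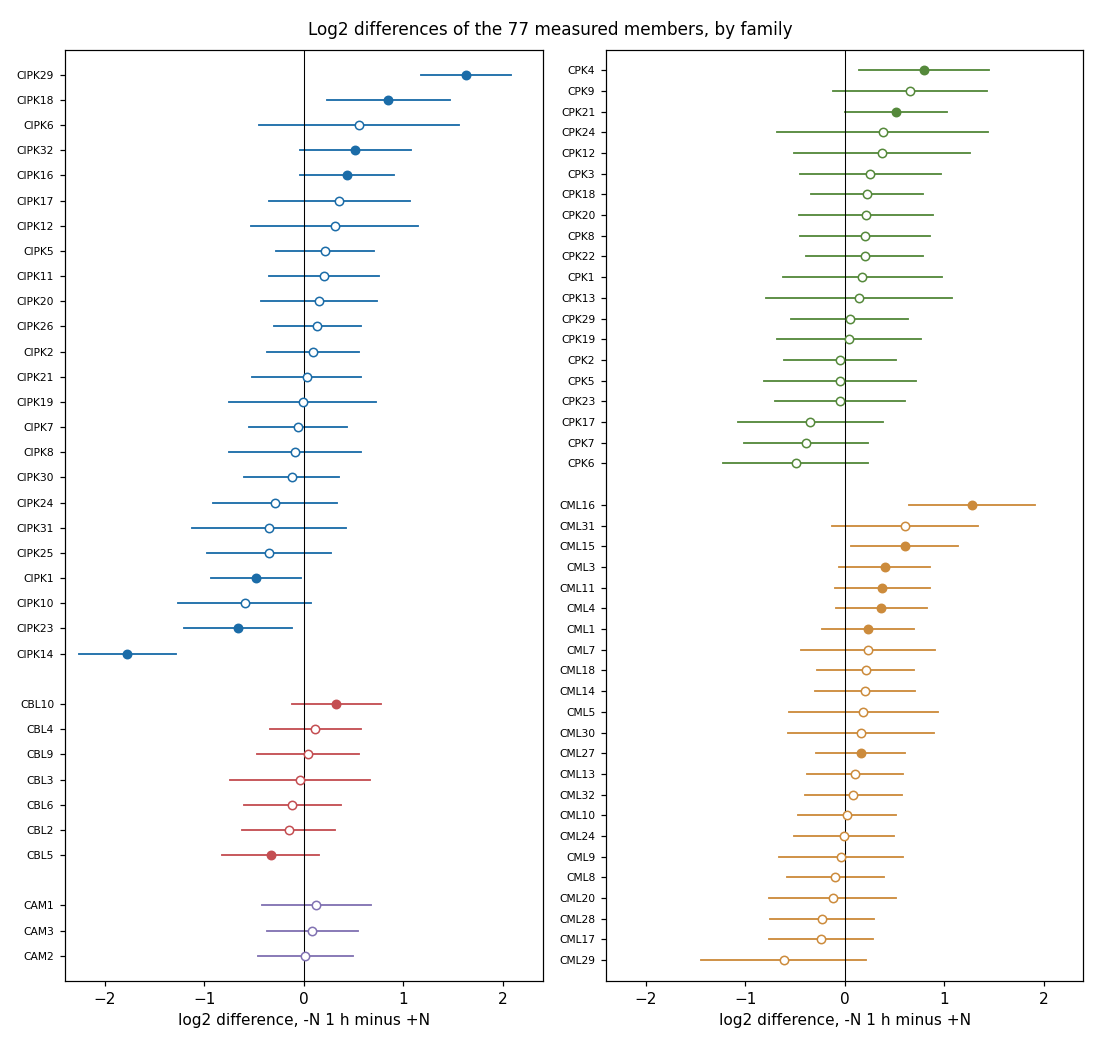
Log2 differences, −N 1 h minus +N (horizontal axes), of the 77 measured members by family, with CIPK, CBL and CAM genes in the left panel and CPK and CML genes in the right. Points are means of 3 against 3 arrays, lines are 95% limma intervals without the replicate block, and filled points have groups that do not overlap. CIPK29 at 1.63 and CIPK14 at −1.77 are furthest from 0.

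The CBL genes encode the partners of the CIPK kinases, and none passed the threshold. Their log2 differences ran from −0.33 for CBL5 to 0.33 for CBL10, and 5 of the 7 measured were within 1.25-fold. CBL10, which in Arabidopsis works with SOS2 in shoots, had 286, 260 and 256 in +N and 336, 312 and 361 in −N, without overlap. CBL5 had 265, 368 and 283 in +N and 242, 236 and 243 in −N, also without overlap. The other CBL genes overlapped between the groups. CBL4, the counterpart of the salt-stress sensor SOS3, had a difference of 0.12, and CBL9, one of the CBLs that activate CIPK23 in Arabidopsis, had 0.04, read by a probe set that can cross-hybridise. CBL2 and CBL3, whose Arabidopsis counterparts sit at the vacuolar membrane, had −0.15 and −0.03, and CBL6 had −0.12. Without the block, the 95% interval of every measured CBL gene included 0, so a change in either direction is still allowed. For CBL3 it was −0.74 to 0.67, with an SE of 0.30 that was 0.097 with the block.

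The calmodulin genes had the narrowest range of differences of any family. CAM1 had 2951, 3897 and 3805 in +N and 3138, 4605 and 3945 in −N. CAM2 had 2358, 3006 and 2806 in +N and 2505, 2974 and 2771 in −N. CAM3 had 6039, 7504 and 7063 in +N and 6744, 7532 and 7548 in −N. In each gene the replicate 1 arrays were the lowest of both groups, and the groups overlapped. The log2 differences were 0.13, 0.02 and 0.09, with 95% intervals that together run from −0.46 to 0.67.

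Calmodulin-like genes included the second largest increase of all members. CML16 had 442, 401 and 383 in +N and 738, 933 and 1414 in −N. The −N arrays were all higher than the +N arrays but spread widely, with means of 409 ± 29.9 and 1029 ± 348 (SD, n = 3). The log2 difference was 1.28 with an SE of 0.27 (limma adjusted p = 0.377, and 0.0929 with the block), and the pairs gave 0.74, 1.22 and 1.88. CML16 was thus at least 2-fold apart without passing the test. With CIPK29 it made up the 2 members that were at least 2-fold higher, against 0.765% of all genes, and CIPK14 was the 1 member at least 2-fold lower, against 1.4%. Without +N replicate 3 the members at least 2-fold higher numbered 4, and without −N replicate 1 also 4. The share of all genes under these settings is not given here. The median log2 difference of all genes also rose, from 0.03 to 0.07 without +N replicate 3 and to 0.17 without −N replicate 1.

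A further 6 CML genes had −N arrays that were all higher. CML15 had 109, 80.8 and 101 in +N and 137, 127 and 178 in −N, a log2 difference of 0.60. CML4, which in rice has been tied to drought tolerance, had 2013, 1822 and 1700 in +N and 2407, 2156 and 2587 in −N, a log2 difference of 0.37. Its probe set is of a type that can read transcripts of several genes. Dimmer probe sets of CML4 gave 0.46 and, at a mean intensity of 8.33, 0.33. CML11 had 352, 339 and 344 in +N and 517, 378 and 464 in −N, a log2 difference of 0.38. In each of these 3 genes the lowest −N array was close to the highest +N array, and the limma adjusted p was 0.809 or more. The difference was 0.40 for CML3, 0.23 for CML1 and 0.16 for CML27. CML1 encodes a calmodulin-like protein with a prenylated tail, and CML27 cleared the +N range by 3753 against 3792 only. CML3 had 17.8 to 19.2 in +N and 21.97 to 27.9 in −N, below the median of every array. CML3 also overlaps CIPK32 on chromosome 12, and whether both probe sets read the same transcript was not tested.

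CML31 and CML29 varied widely between arrays of a group. CML31 had 812, 416 and 451 in +N and 751, 684 and 1053 in −N, and its positive mean of 0.61 came with a negative value in pair 1. CML29 had 523, 753 and 497 in +N and 327, 636 and 263 in −N, the lowest log2 difference of the family at −0.61, with all 3 pairs negative and overlapping groups. CML17 was the next lowest at −0.24. Of the 23 CML genes, 16 had positive differences and 7 negative, and the median was 0.16.

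**Figure D3:**
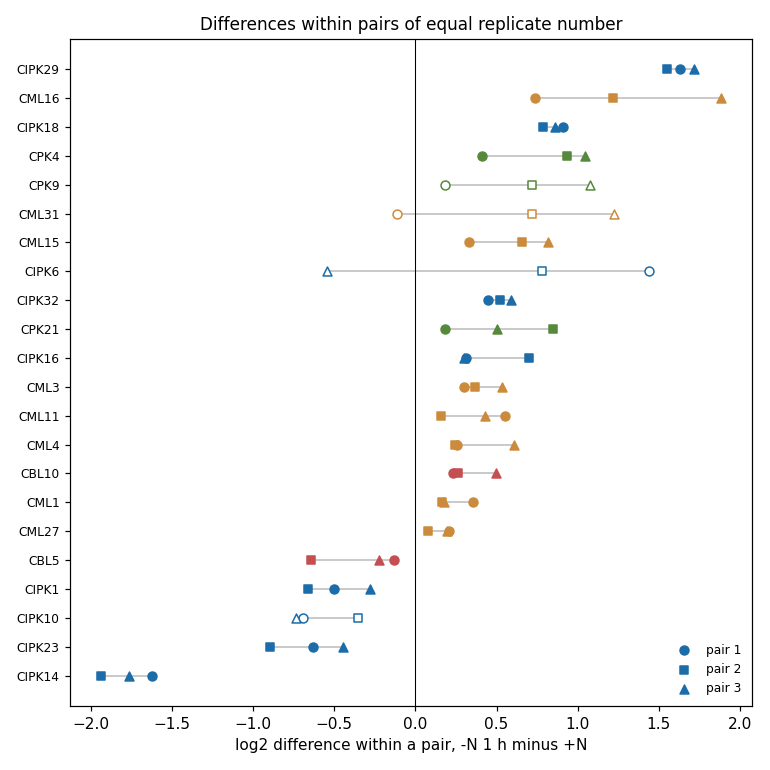
Log2 differences within each pair of equal replicate number (horizontal axis), for the 18 members whose groups do not overlap (filled) and for CPK9, CML31, CIPK6 and CIPK10 (open). Symbols are pairs 1 to 3. CIPK29 and CIPK18 have nearly the same value in each pair, whereas CML16 runs from 0.74 to 1.88 and CIPK6 from −0.55 to 1.44.

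Among the calcium-dependent protein kinases, CPK4 had the largest difference. CPK4, which has been tied to salt and drought tolerance in rice, had 365, 434 and 442 in +N and 484, 828 and 911 in −N. The groups did not overlap, and the smallest gain was in pair 1. The log2 difference was 0.80 with an SE of 0.28 (limma adjusted p = 0.732, and 0.103 with the block). CPK21 was also without overlap, with 21.2, 17.9 and 16.9 in +N and 24.1, 32.2 and 23.9 in −N, but all of these values were under the array medians. CPK9, a regulator of drought tolerance in rice, had 75.3, 74.9 and 97.6 in +N and 85.4, 123 and 206 in −N, a log2 difference of 0.66 with overlap. CPK6 and CPK7 had the lowest differences, −0.49 and −0.39, and both overlapped. The −N values of CPK6 (21.3, 20.3 and 28.6) were all under the array medians. Its pairs gave −0.01, −1.18 and −0.29, and a dimmer probe set of CPK6 gave −0.06. CPK1 had 1069, 2005 and 1843 in +N and 1208, 2344 and 2017 in −N, with both replicate 1 arrays low. Its log2 difference of 0.18 was positive in all 3 pairs (0.18, 0.23 and 0.13), and its limma adjusted p with the block was 0.347. The median of the 20 CPK genes was 0.19, with 14 positive and 6 negative.

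Over all 77 members, 14 had every −N array above every +N array, which is 18.2%, beside 3.98% of all genes. In the other direction there were 4, or 5.19%, beside 5.32% of all genes. By family the higher side held 7 of 23 CML genes (30.4%), 4 of 24 CIPK genes (16.7%), 2 of 20 CPK genes (10.0%), 1 of 7 CBL genes and none of the 3 CAM genes. The lower side held 3 CIPK genes and CBL5. The share on the higher side depended on the scaling: after quantile normalization it was 14.3% of members (11 genes) and 7.08% of all genes, and after median centring 15.6% (12 genes) and 3.94%. Among the genes above the median intensity it was 9 of 50 members, 18.0%, and 3.87% of all such genes. Without −N replicate 1 it was 29 members (37.7%) and 23.8% of all genes. On the lower side the count rose to 12 without +N replicate 1 (15.6%, beside 11.6% of all genes) and to 9 without −N replicate 3 (11.7%, beside 7.52%).

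**Figure D4:**
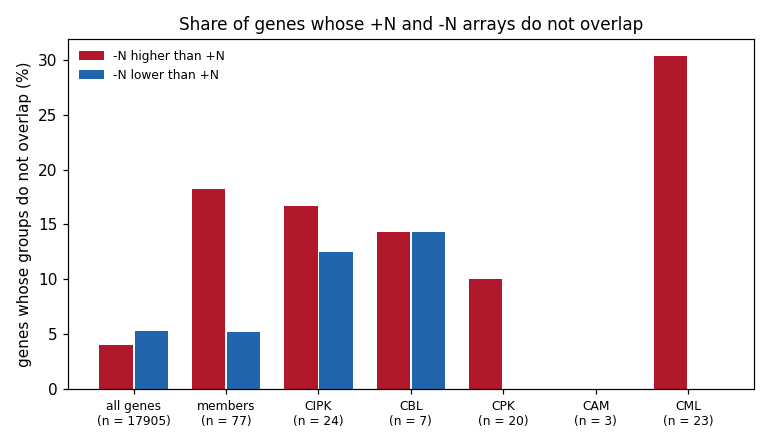
Share of genes, in percent (vertical axis, from 0), whose 3 −N arrays are all higher (red) or all lower (blue) than the 3 +N arrays, for all genes, for the 77 measured members and for each family. The members reach 18.2% on the higher side, beside 3.98% of all genes, and 5.19% on the lower side, beside 5.32%.

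All 3 pairs were positive in 28 members (36.4%), beside 26.5% of all genes, and negative in 13 (16.9%), beside 17.5%. The median log2 difference was 0.12 over the members and 0.03 over all genes. Differences within 1.25-fold made up 62.3% of the members and 78.7% of all genes. The median of the members was between 0.10 and 0.12 in each pair, whereas leaving out a single array moved it from 0.01 without +N replicate 1 to 0.17 without +N replicate 2. Single arrays moved the median of all genes too, from −0.09 without +N replicate 1 to 0.17 without −N replicate 1.

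The members whose log2 intensities followed CIPK29 most closely over the 6 arrays were CML16 (Pearson r = 0.91), CML3 (0.88), CBL10 (0.88), CML4 (0.86) and CIPK16 (0.86). For CIPK14 they were CIPK1 (r = 0.91), CIPK23 (0.89), CBL5 (0.79), CIPK10 (0.77) and CPK6 (0.68). The 6 arrays share the split into +N and −N, so these values largely restate which genes differ in the same direction, and they are given as a description.

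Other genes of calcium signalling gave no call in the fit without the block. Of the Ca2+ pumps and exchangers, which return the ion to the vacuole or the outside, 9 of 11 genes were measured, with a median log2 difference of 0.33. The pump gene ACA7 was the 1 gene of this list without overlap, with 67.9 to 81.4 in +N, 99.9 to 168 in −N and a log2 difference of 0.69. The 2 measured Ca2+ entry channel genes had differences of 0.20 (TPC1) and −0.17 (GLR3.1). The NADPH oxidase gene rbohB, whose product Ca2+ activates, had 0.44, and CCAMK, the calcium- and calmodulin-dependent kinase of root symbiosis, had 0.46, both with overlap. The CRSH genes, which encode calcium-activated enzymes of the alarmone ppGpp, had values of 1.66 for CRSH2, −0.01 for CRSH1 and −0.09 for CRSH3. CRSH2 had 27.1 to 52.2 in +N and 54.8 to 191 in −N, and its limma adjusted p was 0.540. The study had picked CRSH2 from these same arrays, so its value is not independent evidence of a direction.

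Transporters known as CIPK targets, in the case of the AMT1 family from Arabidopsis, were measured for 4 of 5 genes. For rice AMT1;2 the study cites a different kinase, ACTPK1, as able to inactivate the transporter. AKT1, the potassium channel that CIPK23 activates, had 334 to 349 in +N and 323 to 360 in −N, a log2 difference of 0.01. The potassium transporter HAK5 had 7710 to 9066 in +N and 9842 to 10717 in −N, a log2 difference of 0.30 without overlap. The ammonium transporter AMT1-2 had 3249 to 4770 in +N and 619 to 1887 in −N, a log2 difference of −1.85 (limma adjusted p = 0.382), and AMT1-1 had a difference of −0.66. Protein phosphatases 2C, some of which bind CIPK kinases, were measured for 55 of 60 genes, with a median of 0.21, 9 genes higher and 1 lower without overlap, where 3.98% and 5.32% of all genes were. The lower one, PP2C39, was called with the replicate block (log2 difference −1.39, limma adjusted p = 0.0265) and not without it (0.259). AMT1-2, PP2C39 and, on the higher side, PP2C68 had also been picked by the study from these same arrays. Their array values are not independent evidence of a direction. The 10 SnRK2 kinase genes, the nearest relatives of the CIPK kinases outside their own class, had differences of −0.29 to 0.49 and no call in either fit.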

How the data were processed

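Each array's deposited values are intensities of probe sets on a linear scale, as the authors made them. GCOS and RMA are named for this step in the submitters' processing notes, which give neither versions nor order. The log2 of each intensity was taken without a pseudocount. Of all 57381 probe sets, 22436 were tied to 1 gene symbol, 95 to several and 34850, controls included, to none. The 187 controls were left out. Only probe sets with 1 symbol were used, and the brightest represented each gene, which gave 17905 genes. Names and neighbours came from a RefSeq table of assembly ASM3414082v1, with neighbours taken among protein-coding genes only. The members and gene lists were chosen with earlier results of these data known. No reading of protein or promoter sequences was made, since no sequences were used here.

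The 3 arrays of −N were compared with the 3 of +N with limma 3.58.1 (lmFit, eBayes; R 4.3.3). Tests were two-sided, and p-values were adjusted by Benjamini-Hochberg across the 17905 genes and called under 0.05. The fit was also run on simulated data with independent noise, built from the means and spreads of these arrays. The outcome is not given here and is no evidence for the calls. Nothing used here says whether replicates came from separate cultures, so p-values measure the spread between these arrays, whose number limits the precision. Equal replicate numbers are taken as pairs from the data and not from the labels: deviations from the group means correlated at r = 0.79, 0.66 and 0.65 between arrays of equal number (57194 probe sets) and at −0.55 to 0.08 otherwise. Over the 77 measured members alone, r was 0.62, 0.60 and 0.27 for replicates 1 to 3 and −0.55 to 0.12 otherwise. Pair 3 is thus less clear for the members. The genes named are CIPK29 and CIPK14, members past the threshold, the 5 largest changes each way, the brightest of each family, all members of families of 10 or fewer and otherwise the 2 highest and 2 lowest, the 5 most like CIPK29 and CIPK14, and, chosen after their values were seen, those without overlap and CIPK6, CIPK7, CIPK12, CIPK17, CIPK24, CIPK25, CIPK30, CIPK31, CML9 and CPK13. Names of 2 genes in the study's gene tables, calmodulin-like protein 2 and CML21, belong to loci other than the annotation's CML2 and CML21 and have no value here. Alternatives were the replicate block, quantile normalization, median centring, the mean of all probe sets, a filter on dim genes, a pseudocount of 16, trend and robust variance, and leaving out arrays.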

Additional observations from a re-analysis of the deposited data

How the results depend on the processing

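CIPK29 kept its direction under every alternative run and lost its call after quantile normalization (1.61, limma adjusted p = 0.0531), without any 1 array (1.57 to 1.71) and in the blocked fit without replicate 2 (1.67) or 3 (1.59). CIPK14 likewise lost its call after median centring (−1.76, limma adjusted p = 0.0564), without any 1 array (−1.89 to −1.70) and in the blocked fit without replicate 2 (−1.69) or 3 (−1.78). Fits with fewer arrays have fewer degrees of freedom; the cause was not tested otherwise. Members called higher numbered 2 with the replicate block (38 of all genes) and 0 after quantile normalization (2 of all genes). They numbered 0 without any 1 array (0 to 10 of all genes) and 0 in the blocked fit without replicate 2 or 3 (0 of all genes). Members called lower numbered 0 after median centring (12 of all genes) and 0 without any 1 array (0 to 14 of all genes). They also numbered 0 in the blocked fit without replicate 2 or 3 (0 of all genes). With the block, no call other than that of CIPK18 changed among the members. Members at least 2-fold higher numbered 2 to 4 without single arrays (4 without +N replicate 3 and 4 without −N replicate 1). The share of all genes at least 2-fold higher is not given for these settings. Members higher without overlap were 9 above the median intensity, where 50 of 77 members passed, beside 3.87% of all such genes. Without single arrays they were 15 to 29, beside 5.38% to 23.8% of all genes. Those lower were then 4 to 12, beside 7.33% to 11.6% of all genes. The members' median log2 difference was 0.104 with all probe sets averaged, 0.0887 above the median intensity, 0.0967 with the pseudocount, and 0.0119 to 0.172 without single arrays. With all probe sets averaged, CBL9 turned to −0.0327 and CIPK2 to −0.195. Without single arrays the value was −0.0022 to 0.275 for CAM1, −0.0821 to 0.0929 for CAM2, −0.0031 to 0.154 for CAM3, −0.281 to 0.172 for CBL3, −0.0656 to 0.169 for CBL9, −0.105 to 0.46 for CPK1, −0.18 to 0.0722 for CIPK7, −0.54 to 0.0267 for CIPK31, −0.216 to 0.201 for CML9 and −0.18 to 0.529 for CPK13. In the blocked fit, CAM2 was −0.0167 without replicate 1, and without replicate 2 CBL3 was 0.0103, CBL9 −0.0119 and CML9 0.0911, and without replicate 3 CIPK7 was 0.0572 and CIPK17 −0.0159. Overlap counts under other settings were added after seeing the data. The checks planned on EF-hand patterns and promoter windows were not run. No detection calls were used, so values near the floor (under the array medians of 33.3 to 35.2) may hold mostly background.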

Other observations

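Of the 77 measured members, 15 had more than 1 probe set, and 4 of these (CBL9, CIPK2, CIPK23 and CPK13) had probe sets of opposite sign. The probe sets of CIPK7 also stood apart, at similar mean intensities: 1 gave a log2 difference of −0.05 at a mean of 453 and the other −0.70 at a mean of 428. For CPK13 the probe sets gave 0.14 and −0.06. Of the neighbouring members with both genes measured, CIPK29 and CIPK2 on chromosome 7 had 1.63 and 0.09, CIPK32 and CML3, which overlap on chromosome 12, had 0.52 and 0.40, CIPK30 and CIPK12 on chromosome 1 had −0.12 and 0.31, and CML9 and CAM2 on chromosome 5 had −0.04 and 0.02.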
